A study of Mus musculus with 36 samples.

Results

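The livers of heterozygous LXRalpha mutant mice were compared with those of homozygous control mice on a diet that promotes metabolic dysfunction-associated steatohepatitis (MASH), without drug. Tryptophan 441 of the liver X receptor alpha (LXRalpha) had been changed to phenylalanine with CRISPR. Control mice carry tryptophan on both alleles (W/W), and heterozygous mice carry 1 allele of each kind (W/F). All 8 mice were males of 11 to 12 weeks that ate a diet high in fat and cholesterol for 4 weeks and were given vehicle by gavage every day over the last 2 weeks. Group membership comes from these labels and from no measured value, and the comparison holds 8 of the 36 mice of the study, 4 W/F and 4 W/W. Of 49315 genes in the deposited table, 16638 were expressed highly enough to be tested. Other mice of the study enter below beside the W/F difference. All 36 libraries also enter the expression filter, the rescaling described below and the spread estimated in the fit. Homozygous mutants (F/F) on the same diet with vehicle, W/W and W/F mice on the same diet given the LXR agonist T0901317 at 10 mg/kg, and W/W and W/F mice kept on chow as an independent cohort each number 4 per group. PolyA RNA of whole liver was sequenced, and gene-level values carry no allele, so the genotype of each mouse is known from its label alone. F/F mice on chow and F/F mice given T0901317 enter only the filter, the rescaling and the spread. The labels give no litter, founder line or housing, so p-values measure the spread between mice within the 9 groups of the study.

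LXRalpha is a nuclear receptor that senses oxidised forms of cholesterol. With its partner RXR it turns on genes that export sterols (Abca1, Abcg1, Abcg5, Abcg8), that remodel phospholipids (Lpcat3) and that make fatty acids, both directly (Scd1, Fasn) and through the transcription factor Srebf1. In the liver it acts in hepatocytes, where it drives lipogenesis, and in the resident macrophages, the Kupffer cells, whose identity it helps to maintain.

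Levels are TPM (length-normalised transcript shares), read counts scaled for the length of each gene and to a fixed total per library, so levels can be compared between genes. A number in parentheses after a gene is, unless TPM is named, the log2 fold change of W/F over W/W from limma on log2(TPM + 1). The depth estimated from the step size of the values was 21.3 to 24.6 M reads in the W/W and 23.5 to 34.5 M reads in the W/F libraries. Albumin (Alb), the hepatocyte's main secreted protein, was at 39373 to 58303 TPM in W/W and 36841 to 44609 TPM in W/F. A single W/W library, replicate 1, held pancreas transcripts, 240.4 TPM summed over 13 genes against 12.9 to 19.2 TPM in the other W/W libraries. Another, replicate 4, stood apart in lymphocyte genes (134 against 34.6 to 45.5 TPM) and in MHC class II genes (780.4 against 179 to 343 TPM).

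The receptor's own transcript had no direction that held in both scalings of the data. Nr1h3 (ENSMUSG00000002108, chr2:91184061-91202834 in GRCm38), the usual symbol of LXRalpha, was at 83.1, 105, 106 and 101 TPM in the W/W mice and at 120.00, 101, 101 and 110.1 TPM in the W/F mice. The log2 difference was 0.13 (limma adjusted p = 0.275), with groups that overlapped, or -0.53 after the rescaling described next (limma adjusted p = 3.55e-05). Rescaled levels were 119.7 to 133 in W/W and 76.2 to 96.5 in W/F, without overlap. The study's description pairs LXRalpha with the symbol Nr1h2, which usually denotes LXRbeta. Nr1h2 was at 23.1 ± 0.583 TPM in W/W and 39.1 ± 1.06 TPM in W/F (SD, n = 4 each), a difference of 0.74 as deposited and 0.10 after rescaling.

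The difference between the genotypes was broad. As deposited, 11391 genes (68.5%) passed an adjusted p of 0.05 in limma, and 90.02% of them were higher in W/F. The 100 most abundant genes took 54.3% to 59.1% of the TPM in the W/W libraries and 46.3% to 48.04% in the W/F libraries, and the median gene was higher in W/F by 0.52. After each library was rescaled by its median ratio over genes, the median difference was 0.02 and 8831 genes (53.1%) passed, of which 52.3% were higher. A gene is said below to have risen or fallen only where it passed in the same direction in both scalings. By this rule 4619 genes (27.8%) rose and 1137 (6.83%) fell. Rescaled alone, 4619 were higher and 4212 lower, and as deposited 10254 were higher and 1137 lower. The rescaled fit thus set the number of rises and the deposited fit that of falls. The excess of rises over falls therefore comes from the rule and is not a result. At least a 2-fold change in both scalings was seen for 1681 that rose (10.1%) and 365 that fell (2.19%). All 4 W/F mice lay beyond all 4 W/W mice in both scalings for 4079 higher genes (24.5%) and 943 lower genes (5.67%). A further 866 genes passed in opposite directions in the 2 scalings and were called neither. The shares 27.8% and 6.83% are the background for the counts within each gene list below. Testing required 1 TPM in 4 or more of the 36 libraries, of any group. A gene near the floor in W/W could thus be tested because of higher groups alone, and could hardly fall. This holds for members of the macrophage, monocyte, chemokine, neutrophil, fibrosis and cell cycle lists, such as Trem2, Timp1 and Mki67. The lack of falls among such members is not a result.

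**Figure D1:**
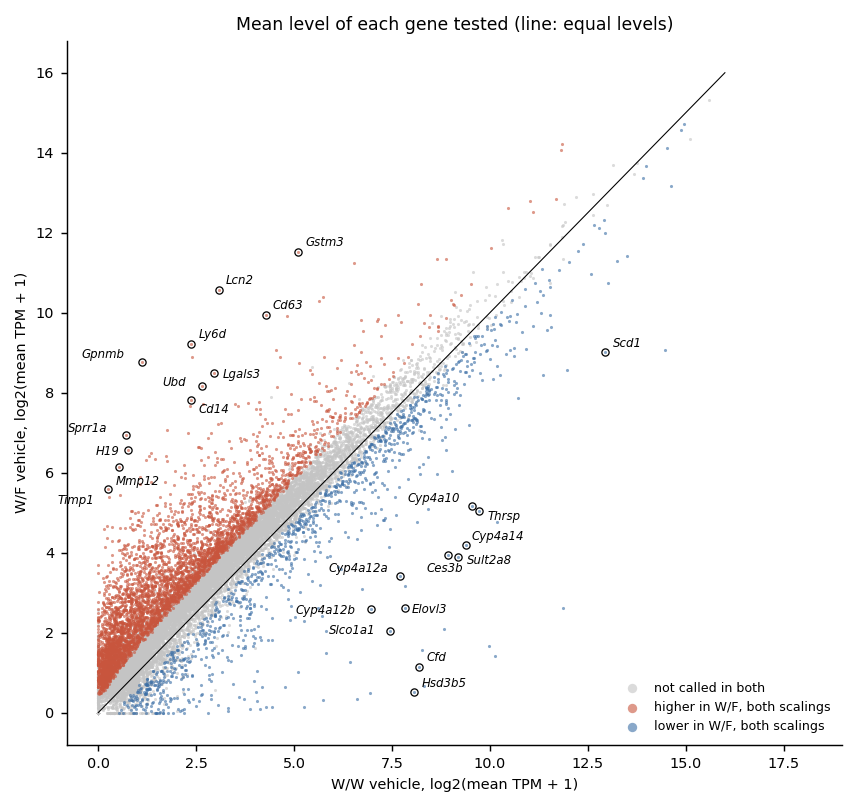
Mean level of every gene tested in the 4 W/W mice (x axis) and the 4 W/F mice (y axis) on the MASH diet with vehicle, as log2(mean TPM + 1), with rises in orange and falls in blue. Open circles mark the 12 highest and 12 lowest fold changes among genes of at least 10 TPM, Mup genes aside, from Gpnmb (1.18 TPM in W/W and 435 TPM in W/F) far above the line of equal levels to Hsd3b5 (266 and 0.421 TPM) far below it.

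Among LXR target genes, those of lipogenesis and of sterol secretion into bile were lower in W/F, whereas Abcg1, Lpl and several others were higher. Scd1 (ENSMUSG00000037071, chr19:44394455-44407879), the desaturase that makes monounsaturated fatty acids, was at 5889, 11171, 8114 and 6408 TPM in the W/W mice and at 322, 616, 612 and 504 TPM in the W/F mice. Every W/F mouse lay far below every W/W mouse, and the log2 fold change was -3.94 ± 0.30 (SE, limma adjusted p = 3.04e-12). Srebf1 (ENSMUSG00000020538, chr11:60199089-60222581), which switches on the enzymes of fatty acid synthesis, was at 365, 441, 186 and 599 TPM in W/W and 80.6, 58.5, 49.9 and 58.0 TPM in W/F, a log2 fold change of -2.57 ± 0.22 (SE, limma adjusted p = 2.37e-11). Fasn, the fatty acid synthase, was at 150.4, 193, 31.2 and 302 TPM in W/W and 28.8, 13.1, 11.1 and 13.02 TPM in W/F. W/W replicate 3 was the lowest W/W mouse for both genes and lay just above the highest W/F mouse for Fasn, whose log2 fold change was -2.99 ± 0.41 (SE).

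Abcg5 (ENSMUSG00000040505, chr17:84658234-84683011) and Abcg8 form the transporter that secretes cholesterol into bile. Abcg5 was at 292, 302, 233 and 332 TPM in W/W and 60.4, 81.3, 69.2 and 65.4 TPM in W/F, without overlap (-2.05 ± 0.23, SE, limma adjusted p = 8.94e-09), and Abcg8 fell with it (-2.18). The phospholipid enzyme Lpcat3 (-0.42) and Apoe, which carries lipid in plasma (-0.30), fell by less, and Apoe missed the threshold without W/W replicate 3 (limma adjusted p = 0.0527). The carbohydrate-sensing lipogenic factor Mlxipl also fell (-1.25).

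Abcg1, which exports cholesterol from macrophages, went the other way. It was at 5.28, 7.44, 5.25 and 8.07 TPM in W/W and 31.3, 42.7, 49.5 and 32.9 TPM in W/F, with every W/F mouse above every W/W mouse (2.41 ± 0.24, SE, limma adjusted p = 4.41e-10). Mylip, a ubiquitin ligase, rose (1.19), as did Arl4c (2.62) and lipoprotein lipase, Lpl (2.90), which was at 9.63, 17.6, 23.1 and 12.4 TPM in W/W and 93.9, 130.3, 144 and 109.8 TPM in W/F. Abca1 was at 30.1 ± 3.93 and 48.2 ± 11.0 TPM (SD, n = 4 each), a difference of 0.64 that was not called after rescaling. Of 29 LXR targets, 8 rose and 10 fell, with a median of 0.01 against 0.52 over all genes. Rises were about as frequent as among all genes (27.8%), so their number is not particular to LXR targets. After rescaling alone, 17 were lower and 8 higher, against 25.3% and 27.8% of all genes. Whole liver was measured, so more or fewer cells of a type and more or less RNA per cell cannot be told apart. Macrophage lists moved with these rises. Resident Kupffer cell genes summed to 619.5 to 884 TPM in W/W and 3415 to 4128 TPM in W/F. That list also holds pan-macrophage genes and members of other lists, such as Hmox1, Cdh5 and C6, which makes up 19.9% of its W/W sum. Its sum therefore does not follow Kupffer cells alone, and of its tested genes 9 rose and 3 fell. Lipid-associated macrophage genes other than Apoe, which makes up 85.2% of their W/W sum, summed to 4622 to 6207 and 15763 to 17177 TPM. Monocyte and inflammatory macrophage genes summed to 1989 to 2331 and 2341 to 2879 TPM, and without Arg1, a urea cycle enzyme of hepatocytes that holds 97.8% of the W/W sum, to 38.8 to 73.8 and 618 to 934 TPM. The part of these lists in the rises was not tested.

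The wider pathway of fatty acid and triglyceride synthesis was lower in W/F. Of 29 genes, 19 fell and 2 rose (median -0.79). The summed level of the list was 11237 to 17238 TPM in W/W and 2783 to 2956 TPM in W/F. Elovl3, an elongase of very long chain fatty acids, was at 107, 222, 359 and 216 TPM in W/W and 9.15, 1.97, 1.01 and 8.38 TPM in W/F (-5.41). Thrsp, a lipogenic regulator, ranged from 105 to 1464 TPM in W/W, with replicate 3 again lowest, and from 12.2 to 82.6 TPM in W/F (-4.62). The acetyl-CoA carboxylases Acaca (-0.79) and Acacb (-1.80), the elongase Elovl6 (-2.03) and malic enzyme, Me1 (-1.20), fell as well. The genes that rose were Elovl1 (1.07) and Scd2 (2.43), a relative of Scd1 that reached only 18.7 ± 2.502 TPM in W/F.

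Cholesterol synthesis and uptake genes were lower by smaller steps. Of 24 genes, 13 fell and 0 rose (median -0.36). The falls included the sterol reductase Tm7sf2 (-2.15), the sterol sensor Insig1 (-1.71) and the demethylase Cyp51 (-0.68). Without W/W replicate 2, whose summed level was the highest, 8 genes fell, and Cyp51 missed the threshold (limma adjusted p = 0.0502).

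**Figure D2:**
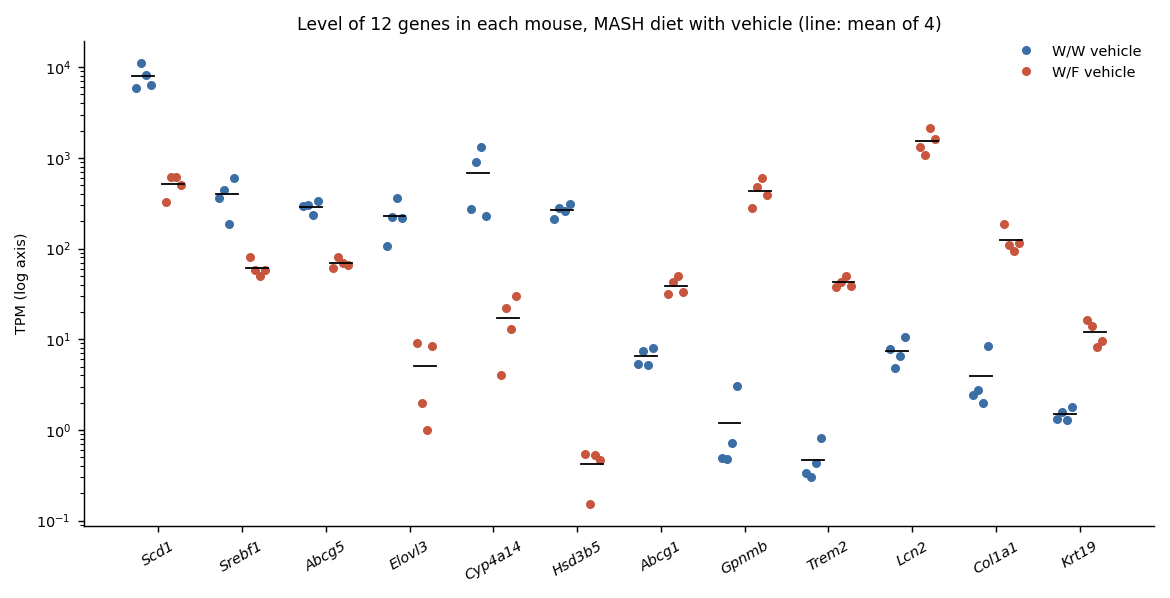
TPM on a log axis of 12 genes in each of the 4 W/W and 4 W/F mice on the MASH diet with vehicle, with the mean of each group as a line. The groups lie apart for each of the 12 genes, with Scd1, Srebf1, Abcg5, Elovl3, Cyp4a14 and Hsd3b5 lower and Abcg1, Gpnmb, Trem2, Lcn2, Col1a1 and Krt19 higher in W/F. The rule that named Scd1, Elovl3, Cyp4a14, Hsd3b5, Gpnmb and Lcn2 required groups without overlap. Of all genes tested, 24.5% lay apart and higher and 5.67% apart and lower in both scalings.

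Genes of fatty acid oxidation and targets of PPAR-alpha, the fatty acid receptor active in fasting, were also lower. Of 26 genes, 14 fell and 1 rose, or 2 without W/F replicate 1 (median -0.34). The omega-hydroxylase Cyp4a14 was at 271, 889, 1311 and 228 TPM in W/W and 4.05, 22.1, 12.96 and 29.7 TPM in W/F (-5.12), apart in spite of wide scatter within both groups. The fatty acid carrier Fabp1 was at 11666 ± 1495 TPM in W/W and 2728 ± 573 TPM in W/F (-2.11; SD, n = 4 each). Cyp4a10 fell too (-4.50), but 29.8% of its exon sequence also occurs in other genes, so its own value is uncertain. Ppara itself was at 40.7 ± 15.98 and 31.7 ± 17.2 TPM and was not called. The mitochondrial oxidation genes Hadha and Acadl, at 114 and 306 TPM in W/W and 111 and 297 TPM in W/F, were not called either.

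Of 18 lipid droplet genes tested, 6 fell and 3 rose. G0s2, an inhibitor of triglyceride breakdown, was at 673, 714, 278 and 407 TPM in W/W and 99.3, 43.1, 41.9 and 75.0 TPM in W/F (-2.97), and the monoglyceride lipase Mgll fell as well (-2.17). The rises were the coat protein Plin3 (1.78), Hilpda (1.498) and the droplet enzyme Hsd17b13 (1.49), which went from 354 ± 61.6 TPM in W/W to 989 ± 32.4 TPM in W/F. Plin2, a main coat protein of fatty hepatocytes, was at 284 ± 58.7 and 352 ± 77.0 TPM and was not called.

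Of 25 bile acid genes tested, 12 fell and 3 rose (median -0.44). The sterol 12-hydroxylase Cyp8b1 was at 346, 200.4, 284 and 291 TPM in W/W and 23.1, 25.6, 13.8 and 42.3 TPM in W/F (-3.45). The oxysterol hydroxylase Cyp7b1 (-2.71) and the main uptake carrier Slc10a1 (-2.27) fell with it. The rises were the exporters to blood Abcc4 (2.89) and Slc51b (2.79) and the carrier Slco1a4 (2.65). Cyp7a1, the rate-limiting enzyme, was at 14.0 to 90.1 TPM in W/W and 27.1 to 46.3 TPM in W/F, ranges that overlapped, and was not called.

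Products that male hepatocytes make under pulses of growth hormone were much lower. Major urinary proteins, pheromone carriers secreted in male urine, summed to 37799.8 to 48798 TPM in W/W and 6483 to 18446 TPM in W/F. Of 20 Mup genes tested, 18 fell (median -5.22), but most are near-copies that share reads, so single members are uncertain. Mup20 was at 10596, 13498, 15936 and 12126 TPM in W/W and 17486, 7646, 6196 and 14165 TPM in W/F, overlapped between the groups, and made up most of the W/F sum.

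Hsd3b5 (ENSMUSG00000038092, chr3:98618634-98630252), a male-biased steroid enzyme with 21.2% shared sequence, was at 213, 284, 257 and 311 TPM in W/W and 0.542, 0.152, 0.525 and 0.464 TPM in W/F (-7.55 ± 0.90, SE, limma adjusted p = 1.74e-08). Slco1a1, a male-biased uptake carrier, fell from 174 ± 37.3 to 3.13 ± 1.36 TPM (-5.44). The list of male-biased growth hormone targets also holds general genes of the growth hormone pathway, among them Ghr, Igf1, Socs2, Igfals and Stat5b. Of 22 genes tested on it, 16 fell and 0 rose (median -1.46). The falls counted include some of those general genes, among them the receptor Ghr (-1.19), the growth factor Igf1 (-0.41) and Igfals. The count is therefore not one of male-biased genes alone. Cyp4a12a (-4.51) and Cyp4a12b (-4.53), male-biased omega-hydroxylases, share 48.9% and 49.4% of their sequence with other genes. Of 15 genes tested that are usually higher in females, 7 rose and 2 fell, with 5 more under the expression filter. The summed level of the list was lower in W/F, at 242 to 1339.6 TPM in W/W and 142 to 351 TPM in W/F. Cyp4a14, described above, makes up 95.3% of the W/W sum, and the other members summed to 14.2 to 63.9 TPM in W/W and 138 to 338 TPM in W/F. The count of falls was 1 without W/F replicate 1, 2 or 3 or W/W replicate 1, 2 or 3. The largest rises were Atp6v0d2 (5.14), which is also on the macrophage list below, Cyp2a4 (4.88, 38% shared sequence) and Cyp2b9 (2.90). Cyp2b9 was at 0.0407, 15.0, 24.5 and 17.6 TPM in the W/F mice, so that W/F replicate 1 did not share the rise, and the call was lost without W/F replicate 3 or 4. Prom1, another member that rose, is also on the bile duct list.

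Other large falls were those of the sulfotransferase Sult2a8, at 600.2, 573, 493 and 651 TPM in W/W and 18.6, 17.3, 8.57 and 11.1 TPM in W/F (-5.34), and of the esterase Ces3b (-5.15, 26.2% shared sequence). Complement factor D, Cfd, best known from fat tissue, was at 369, 303, 390.00 and 107 TPM in W/W and 1.41, 0.510, 1.13 and 1.78 TPM in W/F (-6.93). Of the 11 adipocyte genes listed, 6 were tested, of which 3 fell and 1 rose, and the defining adipocyte gene Lep was at 0 in all 8 libraries. The list summed to 2492 to 3540 TPM in W/W and 382 to 561 TPM in W/F. Without Car3, 87.1% of its W/W sum, it summed to 181 to 497 and 108 to 125 TPM, Cfd included. Whether fat tissue was present in the samples was not tested.

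Metabolic functions of the hepatocyte were lower over many genes. All 19 called genes of 28 for the urea cycle and amino acid breakdown fell (median -0.55), led by the tyrosine enzyme Hpd (-1.89), with the urea cycle's Cps1 (-0.53), Otc (-0.62) and Ass1 (-0.43) among them. Of 37 cytochrome P450 genes of families 1 to 3, which oxidise drugs and steroids, 17 fell and 3 rose, and Cyp2e1, the most abundant, was at 9694, 9343, 10627 and 9349.7 TPM in W/W and 2213, 3622, 2351 and 1885 TPM in W/F (-1.996). Genes of both lobule ends were among the falls, 10 of 23 pericentral and 12 of 22 periportal genes, against 5 and 3 that rose. The pericentral list summed to 19789 to 20630 TPM in W/W and 17355 to 20232 TPM in W/F. Without Cyp2e1, 48.2% of its W/W sum, it was higher in W/F, at 10003 to 11029 and 15142 to 17280 TPM. The periportal list without Serpina1c, 33.6% of its W/W sum, was lower, at 11609 to 12481 and 9160 to 11060 TPM. Glul, the glutamine synthetase of the cells around the central vein (-0.56), and G6pc, the last step of glucose output (-1.31), were among the falls. G6pc missed the threshold without W/W replicate 4, and Cps1 without W/F replicate 1 or 4 or W/W replicate 2 or 4. Respiratory chain subunits fell by small steps as deposited, 18 of 35 with a median of -0.16. After rescaling alone, 35 of 35 were lower, with a median of -0.82, against 25.3% of all genes.

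Few hepatocyte transcription factors were called in both scalings. Of 23 tested, 3 fell and 1 rose, or 6 fell without W/F replicate 2. After rescaling alone, 16 were lower and 1 higher (median -0.65), against 25.3% of all genes lower. Hnf4a, the central regulator of hepatocyte genes, was at 309 ± 76.0 and 332 ± 42.6 TPM and was not called, and Cebpa fell (-0.43). Of 28 plasma proteins, 10 fell and 3 rose. Apolipoprotein A-II, Apoa2, fell from 25324 ± 2681 to 9224 ± 907 TPM (-1.46), while the haem carrier Hpx rose from 3661 ± 433 to 19032 ± 2357 TPM (2.38). Of 20 circadian clock genes, 1 passed, Per1 (1.75), a call lost without any 1 W/F replicate or without W/W replicate 2, 3 or 4, and 1 clock gene fell without W/W replicate 3. Of 31 proteasome subunits, 1 rose, Psmd8 (1.27), and 0 fell, or 1 without W/W replicate 1. After rescaling alone, 30 of these subunits were lower (median -0.57), whereas as deposited 0 were lower (median 0.09).

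Genes of lipid-laden macrophages were among the largest rises. Gpnmb (ENSMUSG00000029816, chr6:49036546-49070929), a membrane glycoprotein of such cells, was at 0.491, 0.482, 0.711 and 3.05 TPM in W/W and 278, 479, 597 and 385 TPM in W/F (7.73 ± 0.53, SE, limma adjusted p = 6.75e-13). W/W replicate 4 was the highest control, still far below every W/F mouse. Trem2, the lipid receptor that marks these cells, was at 0.334, 0.307, 0.428 and 0.814 TPM in W/W and 38.1, 42.7, 50.3 and 38.3 TPM in W/F (4.89). Of 28 genes of lipid-associated macrophages, 23 rose and 1, Apoe, fell (median 3.58). They included the elastase Mmp12 (5.61), the lectin Lgals3 (5.60), the integrin Itgax (4.83), the cathepsin Ctsk (3.87) and the tetraspanin Cd63 (5.72, 11% shared sequence).

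The promoters of Gpnmb and Trem2 are shown because these genes stand for that group and both match TGANTCA. This is a loose pattern for the AP-1 site of the Fos and Jun factors, with any middle base allowed. The match is TGACTCA in Gpnmb and TGAATCA, which fits only the loose pattern, in Trem2. They are taken from RefSeq (GRCm38.p6), from 250 bases before to 50 after the start, at chr6:49036268-49036567, plus strand and chr17:48346151-48346450, plus strand. Capitals mark the match, which begins 8 bases after the start in Gpnmb and 9 bases before it in Trem2.
Gpnmb: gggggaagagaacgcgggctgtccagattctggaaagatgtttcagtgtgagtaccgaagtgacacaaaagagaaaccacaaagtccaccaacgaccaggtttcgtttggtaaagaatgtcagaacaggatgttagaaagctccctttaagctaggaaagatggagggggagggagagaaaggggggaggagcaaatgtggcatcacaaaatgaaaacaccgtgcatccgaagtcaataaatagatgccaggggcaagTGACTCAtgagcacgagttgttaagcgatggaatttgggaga
Trem2: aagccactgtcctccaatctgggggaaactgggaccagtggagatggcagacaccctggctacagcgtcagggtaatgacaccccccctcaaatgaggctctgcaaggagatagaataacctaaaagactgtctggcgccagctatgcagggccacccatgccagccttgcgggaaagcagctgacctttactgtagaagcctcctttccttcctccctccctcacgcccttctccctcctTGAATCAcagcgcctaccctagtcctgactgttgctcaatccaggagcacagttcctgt
On either strand this loose AP-1 pattern was found in 5 of the 16 macrophage-list genes that rose and had a promoter in the table (31.2%: Cd68, Emp1, Gpnmb, Itgax and Trem2), against 7.93% of all 27025 promoters. The antioxidant element (TGACNNNGC), the STAT element (TTCNNNGAA), DR4, which LXR and RXR bind, and the E-box CACGTG were searched too, on both strands and with overlaps between motifs left in. That made 305 pairs of a motif with the risen or the fallen genes of a list, and 15 of the 170 pairs with at least 5 promoters had 3 times the share of all promoters or more. Among them were the loose AP-1 pattern in 4 of 9 risen acute phase genes (44.4%) and the antioxidant element in 5 of 10 risen interferon-stimulated genes (50%, against 12.5% of all promoters). The antioxidant element was in 5 of 18 risen NRF2 targets (27.8%). DR4 was in 0 of the 10 called LXR targets with a promoter in the table. It was in 65 of all 27025 promoters (0.241%), so 10 promoters are too few to show a lack of it. The motifs were searched after the values were seen, base composition was not matched, and a match describes letters, not binding.

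Resident Kupffer cell genes did not move as one. Of 22 tested, 9 rose and 3 fell. The falls were Timd4, a receptor for dying cells, at 6.36, 5.26, 6.26 and 6.74 TPM in W/W and 0.949, 0, 0.642 and 1.56 TPM in W/F (-2.08), the haemoglobin scavenger Cd163 (-2.07) and the lectin Clec4f (-0.76), which missed the threshold without W/F replicate 2 (limma adjusted p = 0.0989). Cd5l, a secreted Kupffer cell protein and LXR target, was at 73.5, 76.2, 81.6 and 90.9 TPM in W/W and 223, 235, 285 and 308 TPM in W/F (1.69), a call lost after rescaling without W/F replicate 4 (limma adjusted p = 0.0587). Pan-macrophage genes on the list rose, with Adgre1 (2.18) and Csf1r (2.64). Vsig4 was at 23.9 ± 0.517 and 34.0 ± 6.70 TPM and was not called.

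Monocyte and chemokine genes rose for the most part. Of 24 monocyte and inflammatory macrophage genes tested, 23 rose (median 2.38), with the endotoxin co-receptor Cd14 (5.42), the chemokine receptor Ccr2 (2.98) and the cytokines Tnf (2.42) and Il1b (2.02). Of 24 chemokines tested, 15 rose and 1 fell. Ccl2, which draws monocytes, was at 0.453, 1.16, 0.708 and 1.99 TPM in W/W and 48.1, 60.6, 57.0 and 66.0 TPM in W/F (4.87), and the B cell attractant Cxcl13 was the one that fell (-1.23). Of 19 neutrophil genes tested, 14 rose and 1 fell, with S100a8 (3.84) and S100a9 (4.09) up, while the defining gene Ly6g averaged 0.0267 TPM in W/W and 0.223 TPM in W/F. The fall, Elane, was lost without W/F replicate 2 or 4 or W/W replicate 1, 2 or 4.

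Lymphocyte genes moved less. Of 30 T, NK and B cell genes listed, 20 were tested, of which 3 rose and 1 fell, with sums of 34.6 to 134 TPM in W/W and 87.2 to 145 TPM in W/F. The highest W/W sum belongs to replicate 4, and without that library 7 genes rose, whereas without W/F replicate 4 only 1 did. The fall was lost without W/F replicate 1, 2 or 4 or W/W replicate 1, 2 or 4. Of 17 dendritic cell and MHC class II genes tested, 13 rose, among them Cd74, the chaperone of MHC class II, at 78.1, 84.6, 149 and 323 TPM in W/W and 975, 756, 792 and 793 TPM in W/F (2.62). Of 26 interferon-stimulated genes, 14 rose, such as Oas1a (2.56) and Isg15 (1.35), and 0 fell. The call of Isg15 was lost without W/F replicate 1, 2 or 4 or W/W replicate 1 or 3.

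Matrix genes of the fibrotic liver rose almost throughout. Of 40 fibrosis and stellate cell genes, 37 rose (median 2.33), and Fn1, Fbln2 and Thy1 did not pass. Col1a1 (ENSMUSG00000001506, chr11:94936224-94953042), a chain of type I collagen, was at 2.40, 2.76, 1.96 and 8.44 TPM in W/W and 186, 109, 93.1 and 115 TPM in W/F (4.81 ± 0.39, SE, limma adjusted p = 1.40e-11), with W/W replicate 4 again the highest control. Timp1, which blocks collagen breakdown, rose from 0.196 ± 0.230 to 46.9 ± 3.62 TPM (5.34), and the smooth muscle actin of activated stellate cells, Acta2, from 3.76 ± 2.13 to 14.0 ± 1.07 TPM (1.75).

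Of 24 bile duct genes tested, 21 rose and 1 fell (median 2.05). The ductal keratin Krt19 was at 1.33, 1.58, 1.30 and 1.80 TPM in W/W and 16.4, 14.0, 8.27 and 9.52 TPM in W/F (2.34), and Epcam (2.79), Sox9 (1.84) and Tspan8 (4.17) rose with it. Endothelial genes split, with 7 of 27 up and 8 down. The adhesion molecules Icam1 (3.11) and Vcam1 (2.78) rose, while the sinusoidal lectin Clec4g (-1.04) and the VEGF receptor Kdr (-0.70) fell.

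Rises were also common among acute phase, antioxidant and lysosome genes. Of 29 acute phase genes, 12 rose and 0 fell (median 1.49), or 1 fell without W/W replicate 2. Lcn2 (ENSMUSG00000026822, chr2:32384633-32388252), an iron-siderophore binder, was at 7.83, 4.82, 6.604 and 10.5 TPM in W/W and 1328, 1063, 2117 and 1599.8 TPM in W/F (7.50 ± 1.05, SE, limma adjusted p = 3.16e-07). The metallothionein Mt2 (4.55) and haptoglobin, Hp (2.25), rose too, whereas Crp was at 266 ± 57.3 and 248 ± 24.9 TPM and was not called. Of 30 targets of the oxidant sensor NRF2, 21 rose and 1, the lipogenic Me1, fell. Nqo1 (2.60), Srxn1 (3.04) and the glutathione transferase Gstm3 (6.501, 28.8% shared sequence) were among the rises, and Gstm3 reached 2936 ± 326 TPM.

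Of 34 lysosome genes, 24 rose and 0 fell (median 1.17). The protease Ctsd (2.27, 32.4% shared sequence) was at 176, 208, 228 and 195 TPM in W/W and 799, 998, 1135 and 1002 TPM in W/F. The membrane protein Lamp1 rose (1.00), as did the galactosidase Gla (2.59) and the lipid-hydrolase activator Psap (2.45). The promoters of Ctsd, Lamp1 and Gla are shown because they hold the palindromic E-box CACGTG, in capitals, which factors of the TFEB family bind. They are from RefSeq (GRCm38.p6), at chr7:142387778-142388077, minus strand, chr8:13158911-13159210, plus strand and chrX:134600956-134601255, minus strand.
Ctsd: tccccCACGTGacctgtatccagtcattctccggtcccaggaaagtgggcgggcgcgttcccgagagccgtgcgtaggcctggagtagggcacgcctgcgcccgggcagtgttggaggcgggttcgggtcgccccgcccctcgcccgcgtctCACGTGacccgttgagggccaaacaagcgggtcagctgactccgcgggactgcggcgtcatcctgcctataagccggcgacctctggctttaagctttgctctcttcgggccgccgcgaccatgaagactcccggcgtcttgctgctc
Lamp1: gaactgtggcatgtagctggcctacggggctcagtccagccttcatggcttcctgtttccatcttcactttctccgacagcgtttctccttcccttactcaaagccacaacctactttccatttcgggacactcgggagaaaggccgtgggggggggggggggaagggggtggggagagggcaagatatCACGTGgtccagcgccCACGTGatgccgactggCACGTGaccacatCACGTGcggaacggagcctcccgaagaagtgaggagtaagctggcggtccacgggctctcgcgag
Gla: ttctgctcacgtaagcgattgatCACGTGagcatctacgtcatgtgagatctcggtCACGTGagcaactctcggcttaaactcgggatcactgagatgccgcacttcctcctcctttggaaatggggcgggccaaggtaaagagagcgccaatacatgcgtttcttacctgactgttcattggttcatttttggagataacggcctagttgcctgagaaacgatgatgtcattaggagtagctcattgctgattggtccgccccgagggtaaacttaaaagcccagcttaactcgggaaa
The E-box was found in 7 of the 18 risen lysosome genes with a promoter in the table (38.9%), against 7.24% of all promoters, and Lamp1 held 4 copies. Macrophage and lysosome lists overlap in genes such as Ctsd, Ctss and Atp6v0d2.

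Cell cycle genes were low in W/W and mostly higher in W/F. Of 37 tested, 33 rose and 0 fell (median 1.62), though members near the floor in W/W could hardly fall. The proliferation marker Mki67 was at 0.113, 0.201, 0.140 and 0.225 TPM in W/W and 4.55, 5.31, 5.14 and 3.30 TPM in W/F (2.24). The cell cycle inhibitor Cdkn1a (2.96) and the G1 cyclin Ccnd1 (3.27) rose as well. Of 17 fetal liver and tumour-associated genes tested, 12 rose, with the imprinted RNA H19 (5.82) and the surface protein Ly6d (6.78) foremost. Ly6d was at 2.91, 5.85, 4.74 and 3.17 TPM in W/W and 565, 303, 591 and 929.5 TPM in W/F. The cornified envelope gene Sprr1a (6.18) and the ubiquitin-like modifier Ubd (5.64) were also among the 12 highest fold changes of genes at 10 TPM or more.

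Protein stress genes passed at shares below the 27.8% and 6.83% of all genes. Of 33 genes of the unfolded protein and integrated stress responses, 7 rose and 1 fell, a fall lost without W/F replicate 1 or W/W replicate 3. The stress factor Atf3 (4.52) and the asparagine synthetase Asns (2.40) rose, while the chaperone Hspa5 was at 430.1 ± 163 and 581 ± 93.0 TPM and was not called in both scalings. Of 36 ribosomal protein genes, 5 rose, or 2 without W/W replicate 3 and 3 without W/F replicate 1 or 4 or W/W replicate 2 or 4, and the list's median was 0.68 as deposited and 0.02 after rescaling.

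**Figure D3:**
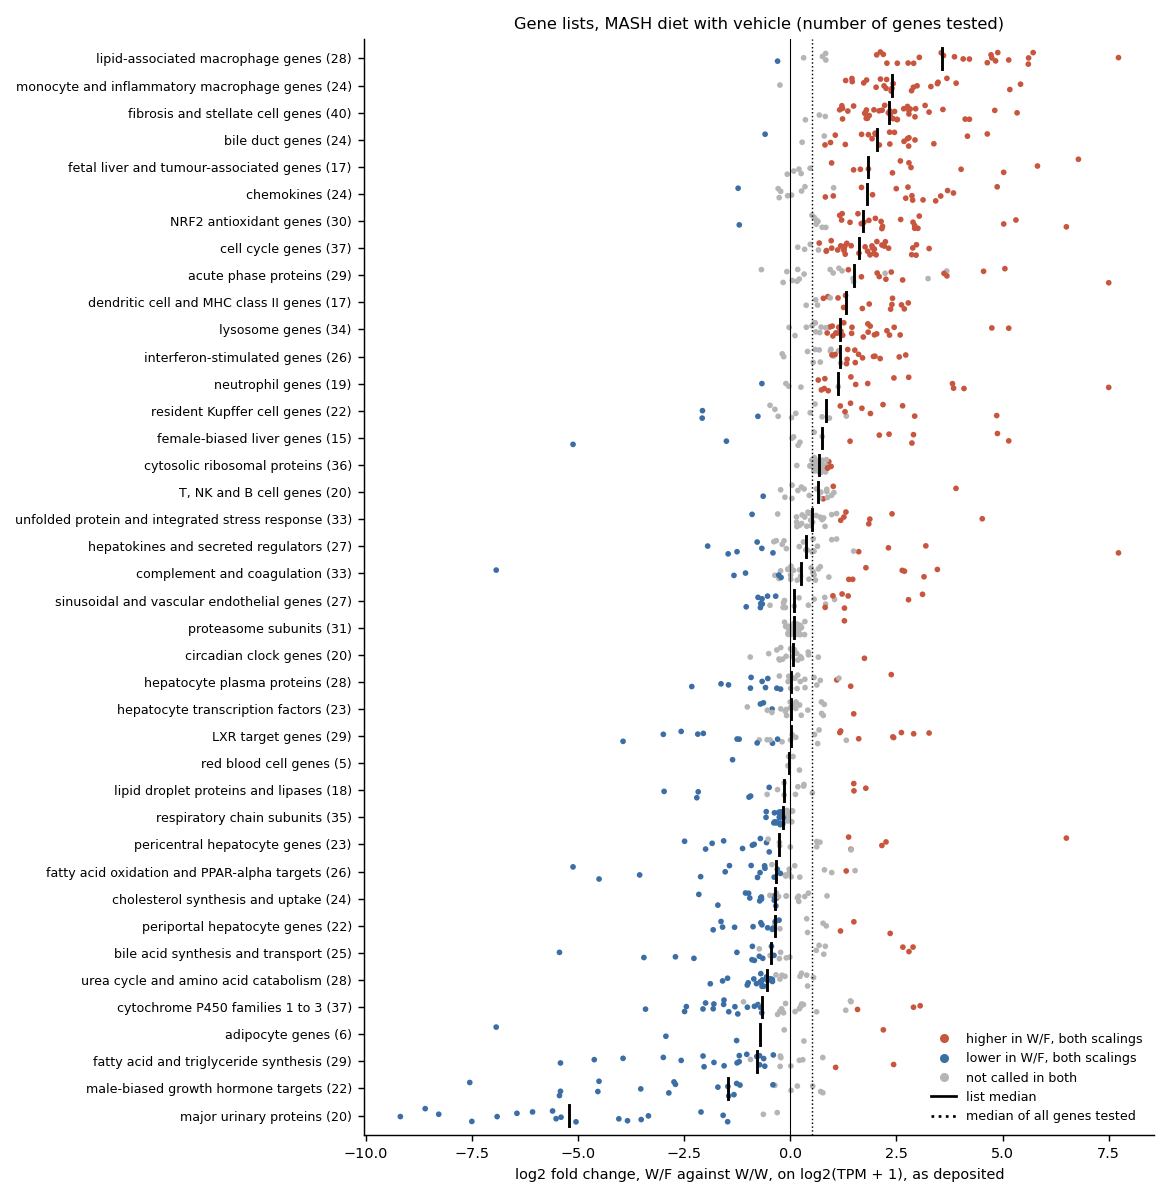
Log2 fold change of W/F over W/W for each gene tested (points) in each gene list, on log2(TPM + 1) as deposited, with the list median as a bar and the median of all genes (0.52) as a dotted line. Mup genes lie lowest (median -5.22) and lipid-associated macrophage genes highest (median 3.58).

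The same genotype contrast was small on chow. There 31 genes rose (0.186%) and 46 fell (0.276%) in W/F against W/W, by the same rule of both scalings. The difference between the vehicle and chow contrasts, tested as an interaction in limma, was called higher for 3515 genes (21.1%) and lower for 854 (5.13%). The chow mice were an independent cohort, so diet and cohort cannot be told apart. Scd1 was already lower on chow (-6.51), at 3708 ± 1678 TPM in W/W and 38.3 ± 18.02 TPM in W/F, and the interaction was 2.57 (limma adjusted p = 8.59e-06), a larger log2 difference on chow than on the MASH diet. Srebf1 was also lower on chow (-1.34), by less than on the MASH diet (interaction -1.23). Abcg5 was at 81.5 ± 18.7 and 84.3 ± 25.5 TPM on chow (interaction -2.08). Lpl turned direction, with 10.03 ± 4.19 TPM in W/W and 1.85 ± 0.385 TPM in W/F on chow (-1.89) and an interaction of 4.80. The fatty acid carrier Fabp5 did the same (-2.94 on chow, interaction 5.98).

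Gpnmb was at 0.550 ± 0.188 and 0.551 ± 0.103 TPM on chow (interaction 7.72), and Col1a1 at 3.11 ± 0.750 and 4.16 ± 0.285 TPM (interaction 4.47). Hsd3b5 was at 423 ± 72.4 and 426 ± 79.5 TPM on chow (interaction -7.55). On chow no gene of the fibrosis, bile duct, monocyte, lysosome or cell cycle lists passed in either direction. Over all genes only 0.186% rose and 0.276% fell on chow, so the absence of calls in lists of this size is not particular to them. Cholesterol synthesis and uptake was the list with the most rises on chow, 11 of 24, and 17 of its genes had a lower contrast on the MASH diet, as Cyp51 did (1.19 on chow and -0.68 on the MASH diet).

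**Figure D4:**
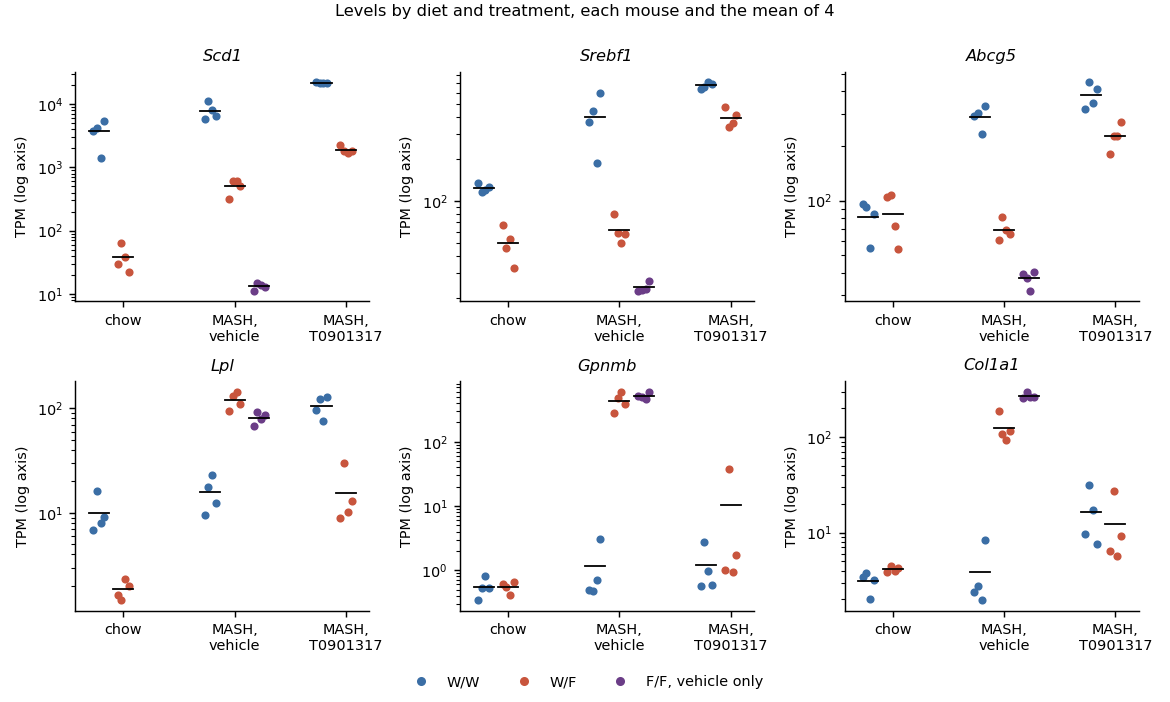
TPM on a log axis of Scd1, Srebf1, Abcg5, Lpl, Gpnmb and Col1a1 in each mouse by diet and treatment, for W/W and W/F and, with vehicle only, F/F, with the mean of 4 as a line. Gpnmb and Col1a1 are far apart between W/W and W/F with vehicle, whereas Scd1 is lower in W/F in all 3 conditions.

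With T0901317 on the MASH diet, 580 genes rose (3.49%) and 997 fell (5.99%) in W/F against W/W. The vehicle contrast was higher than the T0901317 contrast for 4016 genes (24.1%) and lower for 877 (5.27%). W/F replicate 2 with T0901317 stood apart from its group, and without it 446 genes rose and 1014 fell, and the interaction was called for 4134 and 889 genes. Gpnmb was at 1.22 ± 1.04 TPM in W/W and 10.3 ± 18.2 TPM in W/F with the agonist (interaction 6.61). W/F replicate 2 alone was at 37.7 TPM, and without it the W/F mean was 1.22 ± 0.446 TPM (SD, n = 3) and the interaction 7.65. Col1a1 was at 16.5 ± 10.7 and 12.2 ± 10.3 TPM (interaction 5.30), with a W/F mean of 7.07 ± 1.87 TPM (n = 3) and an interaction of 5.76 without W/F replicate 2. Hsd3b5 was at 54.0 ± 34.1 and 126 ± 125 TPM (interaction -8.06), with a W/F mean of 167 ± 118 TPM (n = 3) and an interaction of -9.11 without that library. Scd1 was lower in W/F with the agonist as well (-3.53), and the difference from the vehicle contrast was -0.41 (limma adjusted p = 0.407). Cholesterol genes fell in W/F with the agonist, 23 of 24, and fatty acid synthesis genes too, 21 of 29. Abcg5 was at 379.8 ± 59.1 and 226 ± 36.5 TPM with the agonist (interaction -1.30).

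**Figure D5:**
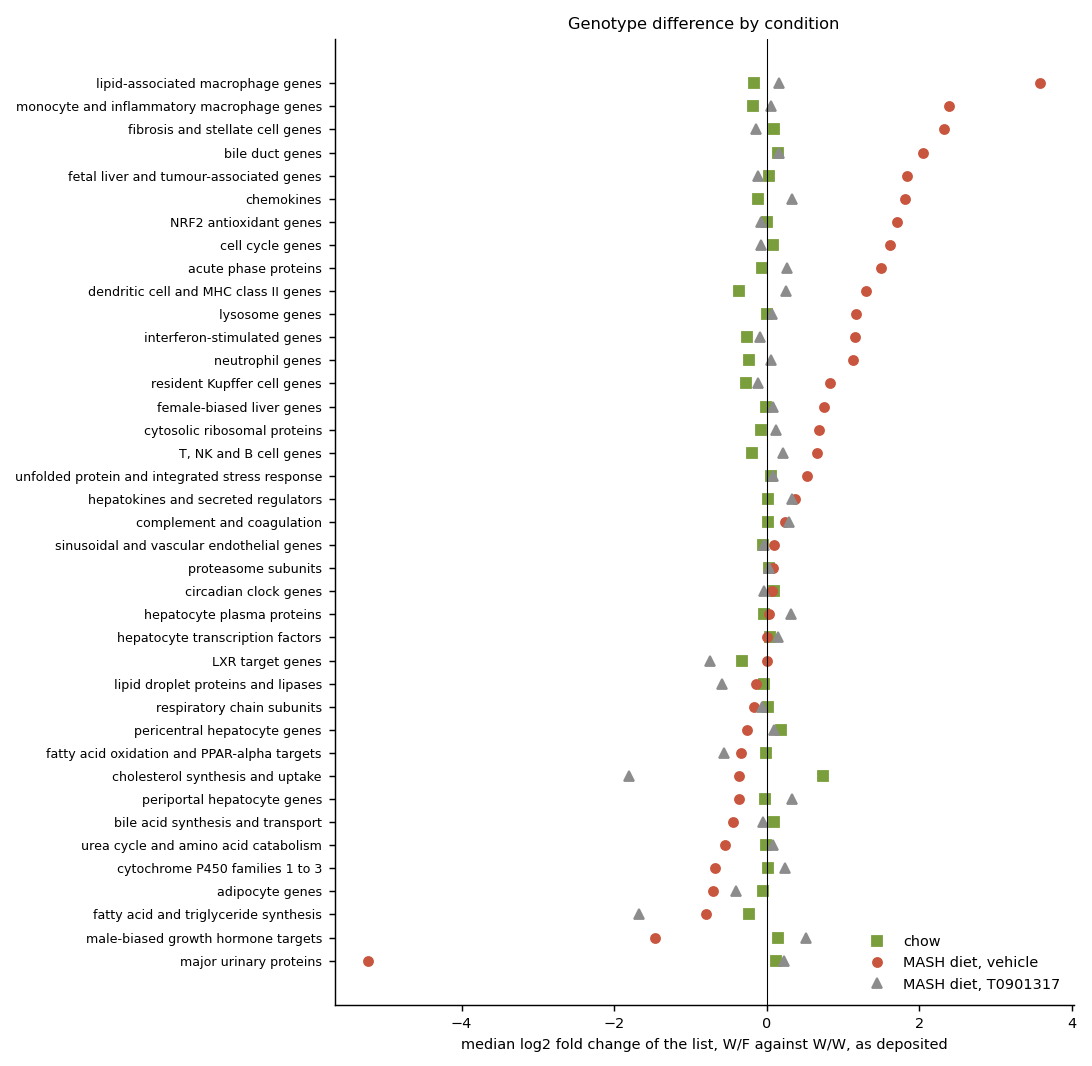
Median log2 fold change of W/F over W/W of each gene list, on log2(TPM + 1) as deposited, on chow (squares), on the MASH diet with vehicle (circles) and on the MASH diet with T0901317 (triangles). Lipid-associated macrophage genes have medians of -0.17, 3.58 and 0.16, and cholesterol genes of 0.73, -0.36 and -1.81, in that order.

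Homozygous F/F mice on the same diet and vehicle were set against the same W/F mice, so both contrasts share them. Against the same 4 W/F mice, 979 genes rose (5.88%) and 367 fell (2.21%) in F/F. Scd1 was lower again, at 13.1 ± 1.61 TPM in F/F (F/F over W/F -5.15), and Srebf1 was at 23.8 ± 1.93 TPM (-1.32). Bile duct genes were higher in F/F for 19 of 24, as in the metalloproteinase Mmp7, which averaged 0.639 ± 0.322 TPM (W/W), 15.98 ± 2.55 TPM (W/F) and 141 ± 24.6 TPM (F/F). Gpnmb was at 519 ± 59.2 TPM and Col1a1 at 269 ± 19.98 TPM in F/F, and neither was called against W/F.

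Some Kupffer cell genes were lower in F/F than in W/F, and 12 of the 22 tested were not called. The summed level of the list was 3415 to 4128 TPM in W/F and 3366 to 4276 TPM in F/F. Because the list also holds pan-macrophage genes and members of other lists, a level sum does not mean unchanged Kupffer cell genes. Clec4f averaged 72.3 ± 4.17 TPM (W/W), 45.0 ± 18.2 TPM (W/F) and 0.354 ± 0.158 TPM (F/F), with F/F over W/F at -5.001. Cd5l, higher in W/F than in W/W, was at 1.58 ± 0.424 TPM in F/F (-6.68), and Vsig4 at 1.13 ± 0.544 TPM (-4.05). Of 22 Kupffer cell genes, 10 fell and 0 rose from W/F to F/F. Of 37 cytochrome P450 genes, 18 were lower in F/F than in W/F, of which 11 had also fallen from W/W to W/F. Cyp2c29 averaged 1214 ± 182 TPM (W/W), 348 ± 56.1 TPM (W/F) and 75.6 ± 28.4 TPM (F/F).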

How the data were processed

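Liver polyA RNA of 36 male mice was sequenced, and the authors deposited TPM for each gene and library, in which each library sums to 1000000. Reads were trimmed with Trimmomatic 0.36, aligned with STAR 2.5.2b to GRCm38/mm10 and counted with featureCounts of Subread 1.5.2, per the submitters' processing notes. The annotation release and strand setting are not given in the sources used here. Because the notes name no strand setting, overlapping and antisense genes cannot be told apart. GENCODE M21 supplied gene names, lengths and coordinates. TPM keep no read totals, so depth was estimated from the step between low values with these lengths, and 93.7% to 95.7% of low values then came within 0.1 of a whole read.

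Genes that reached 1 TPM in 4 or more libraries were fitted on log2(TPM + 1) with limma 3.58.1 (trend, R 4.3.3), 1 mean for each of 9 groups over 36 libraries, with Benjamini-Hochberg adjustment over all genes tested. The fit was repeated after rescaling by median-of-ratios factors. On simulated data for the vehicle comparison (16638 genes), 90 of 100 2-fold and 99 of 100 4-fold changes were recovered. In those data 16438 genes were left unchanged, of which 15 were called. The changed genes were drawn away from the lowest levels, and a single scaling was fitted. Recovery of genes near the floor, or by the rule of both scalings, was not tested. Recovery where 68.5% of genes pass, as in the fit to the deposited values, was not tested. No per-sample column was left unused. The gene lists, the named genes and the comparison were chosen with earlier results of these data known. Named genes are the 12 highest and 12 lowest fold changes among genes called in both scalings, without overlap and averaging 10 TPM or more in the higher genotype, leaving out Mup and predicted genes, and also Nr1h3, Nr1h2 and members of the lists. Mmp7, Cyp2c29, Fabp5 and other list members were chosen after their values were seen. List sums without their leading gene, and values without W/F replicate 2 with T0901317, were likewise added after seeing the data. Shared sequence is the share of a gene's 50-base words that also occur in transcripts of another gene. It was also above 10% for Acaca (30.4%), Ass1 (38.6%), Me1 (22.9%), Oas1a (57.6%), Cyp2b9 (11.2%) and Glul (11.9%). Some members of the lists are not reported here. Figures were drawn with matplotlib from the same tables.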

Additional observations from a re-analysis of the deposited data

Results flagged for a closer look

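In 31 of 338 groups of 4 values examined, over the genes whose fold change is given, the gene lists and the library measures, 1 library lay far from the other 3 of its genotype. Chance gives about 1 in 20 groups. The cause was not tested. The values that stood apart in W/F replicate 1 were those of Cd74 (975 TPM), Fasn (28.8 TPM) and Thrsp (82.6 TPM). W/F replicate 2 stood apart in Abcg8 (55.7 TPM). The outlying genes of W/F replicate 3 were Kdr (3.43 TPM), S100a8 (47.4 TPM) and Tnf (7.80 TPM). Values far from the group were found in W/F replicate 4 for Cxcl13 (0.268 TPM) and Me1 (70.2 TPM). W/W replicate 1 differed from its group in Igfbp1 (80.2 TPM). In W/W replicate 2 the values apart were those of Cyp51 (23.2 TPM) and Epcam (2.98 TPM). Library W/W replicate 4 was apart in Cd63 (27.8 TPM), Col1a1 (8.44 TPM), Gpnmb (3.05 TPM), Itgax (3.23 TPM), Mlxipl (272 TPM), Mmp12 (0.896 TPM), Oas1a (4.85 TPM), S100a8 (2.97 TPM) and Ubd (10.3 TPM). Summed levels that stood apart were the list of hepatocyte plasma proteins in W/F replicate 1 (147660 TPM), the list of dendritic cell and MHC class II genes in W/F replicate 1 (2124 TPM), the list of cell cycle genes in W/F replicate 1 (465 TPM), the list of resident Kupffer cell genes in W/F replicate 3 (4128 TPM), the list of lipid droplet proteins and lipases in W/F replicate 4 (2330.3 TPM), the list of pancreas genes in W/W replicate 1 (240.4 TPM), the list of fatty acid and triglyceride synthesis in W/W replicate 2 (17238 TPM), the list of cholesterol synthesis and uptake in W/W replicate 2 (1337 TPM) and the list of T, NK and B cell genes in W/W replicate 4 (134 TPM). The estimated depth of W/F replicate 1, 34.5 M reads, was above the rest of its group.

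The W/F against W/W contrast differed between conditions by the interaction test of limma, in both scalings, for 4369 genes between vehicle and chow and for 4893 genes between vehicle and T0901317, out of 16638. Against chow, the named genes with a called difference, each as the vehicle contrast minus the chow contrast on the log2 scale, were Abcg5 (-2.08), Col1a1 (4.47), Fabp5 (5.98), Gpnmb (7.72), Hsd3b5 (-7.55), Lpl (4.80), Scd1 (2.57) and Srebf1 (-1.23). Against T0901317 they were Abcg5 (-1.30), Col1a1 (5.30), Fabp5 (6.998), Gpnmb (6.61), Hsd3b5 (-8.06), Lpl (5.73) and Srebf1 (-1.79). Chow mice came from an independent cohort, and W/F replicate 2 with T0901317 stood apart from its group.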

How the results depend on the processing

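As deposited, 11391 genes passed in the vehicle comparison of W/F with W/W. The count was 11372 with a pseudocount of 0.1, 8558 with at least 5 TPM required, 12453 with no filter, 11651 with array quality weights and 10956 with only the 8 libraries compared. Leaving out 1 library in turn gave 10684 to 11330 genes, 8283 to 9280 for the interaction with chow (9086 with all libraries), 9055 to 9877 for the interaction with T0901317 (9726), 2556 to 3274 for F/F against W/F (3552), and 4254 to 4527 higher and 1023 to 1140 lower genes in both scalings (4619 and 1137). For F/F against W/F, rescaling gave 1755 genes. The cause was not tested. Nr1h3 turned from higher to lower after rescaling (-0.53, limma adjusted p = 3.55e-05), and the cause was not tested. Among 125 genes with a printed fold change, 14 of 1873 recomputed values changed the call or the direction in single scalings, Nr1h3, Abca1 and Nr1h2 among them after rescaling. The call in both scalings, which the report uses, changed in 29 of 1748 values of 9 genes. Apoe, Isg15 and Per1 lost it with no filter, Per1 with a pseudocount of 0.1, Cps1 and G6pc with only the libraries compared, and Apoe, Cd5l, Clec4f, Cps1, Cyp2b9, Cyp51, G6pc, Isg15 and Per1 without 1 library. Counts of 5 or fewer members of a list often moved by over 1.5 times, and those from leaving out 1 library stand beside the counts. Elsewhere, risen neutrophil genes numbered 8 in place of 14 with at least 5 TPM required, and risen cytochrome P450 genes 6 in place of 3 with only the libraries compared. TPM hold no read totals, so low levels carry no counting interval.

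The replicate number was also fitted as a block. Same-numbered W/W and W/F libraries had deviations that correlated at 0.16, 0.05, 0.04 and -0.11, so the numbers were not treated as pairs. With the replicate block, 11418 genes passed for W/F against W/W, 9155 and 9763 for the interactions with chow and T0901317, and 3562 for F/F against W/F. In both scalings 4644 genes were higher and 1144 lower.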

Other observations

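Of 33 complement and coagulation genes, made by hepatocytes and macrophages, 7 rose and 5 fell in W/F against W/W on the MASH diet with vehicle. The C1q chain C1qb was at 42.8, 45.7, 55.1 and 70.7 TPM in W/W and 456, 473, 523 and 447 TPM in W/F (log2 fold change 3.15), and the central component C3 was at 2082 ± 447 and 7138 ± 1505 TPM (1.78, SD, n = 4 each). The membrane attack component C8b fell (-1.33), while prothrombin, F2, was at 826 ± 54.0 and 830.1 ± 53.4 TPM and was not called.

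Of 27 hepatokines and secreted regulators, 4 rose and 6 fell. The activin inhibitor Fst was at 1.63, 1.95, 2.67 and 1.64 TPM in W/W and 15.6, 34.1, 31.2 and 26.8 TPM in W/F (3.19), and Igfbp1 rose too (2.31). Angptl8, a feeding-induced inhibitor of lipoprotein lipase, was at 117, 466, 237 and 551 TPM in W/W and 149, 71.4, 46.1 and 63.2 TPM in W/F (-1.95). The stress hormone Fgf21 (mean ± SD 5.30 ± 2.66 TPM for W/W and 10.6 ± 3.60 TPM for W/F) and its fellow Gdf15 (36.9 ± 24.1 TPM and 71.5 ± 15.8 TPM, same order) did not pass in both scalings. Of 5 red blood cell genes tested, the haem synthesis gene Alas2 fell (-1.36), and neither of the 2 pancreas genes tested was called (2 were lower without W/W replicate 2 and 1 without W/W replicate 3).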
